A study of Homo sapiens with 4 samples.

Results

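The cytosolic ribosomal proteins are the protein parts of the ribosome that translates nuclear mRNAs. Their genes were taken by symbol: every RPS or RPL symbol with a number and an optional A, X, L or L1 ending, the stalk genes RPLP0, RPLP1 and RPLP2, and RPSA, RPL36AL and FAU, with pseudogenes kept out. This rule found 85 of the 16490 genes with values, 33 of the small subunit and 52 of the large subunit. The study asked what CEBPG, a bZIP transcription factor of the C/EBP family, does in acute myeloid leukemia, and the RNA-seq comparison analysed here was made in MV4-11, a human leukemia line of monocytic type with an MLL fusion. One group, sh-NC, was made with a negative control hairpin and the other, sh-CEBPG#3, with 1 hairpin against CEBPG, with 2 libraries each. All 4 libraries came from cells that carried a lentiviral pLKO.1 hairpin vector and had been selected with puromycin, and the time of RNA harvest is not given in the sources used here. With a single CEBPG hairpin, an effect of that hairpin on other mRNAs and an effect of CEBPG loss cannot be told apart.

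Ribosomal protein mRNAs are among the most abundant in dividing cells, and their products are made in nearly equal numbers because each ribosome holds 1 copy of almost every protein. Most of them belong to the TOP mRNAs, which begin with a C at the cap followed by an unbroken run of pyrimidines, the 5′ terminal oligopyrimidine tract. Through this tract, mTOR signaling, the protein LARP1 and the 4E-BP repressors set how strongly the mRNAs are translated and how long they last. In blood, inherited loss of 1 copy of any of several of these genes causes Diamond-Blackfan anemia, and RPS14 is lost in the 5q- syndrome.

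Values were FPKM (fragments scaled to exon length and to the number of mapped fragments), summed over the RefSeq transcripts of each gene. FPKM is relative to all RNA in a library, so in these bulk samples less of these mRNAs per cell, more of other RNA and a changed mix of cells cannot be told apart. Counts were not analysed here and the depth is unknown: among 1027 transcripts at low values, the commonest ratio between the 2 sh-NC libraries took only 0.487% of them, so whole reads could not be recovered. CEBPG itself, the targeted gene, had 30.4 and 33.6 FPKM in control cells and 19.2 and 17.1 in the knockdown (limma adjusted p = 8.88e-05), 56.8% of control. All 8 markers of the myeloid line had values, and 5 rose and 2 fell. Their sum was 889 and 967 FPKM in sh-NC against 3545 and 3374 in sh-CEBPG#3, carried by the lysozyme gene LYZ, at 567 and 610 against 3126 and 2982 FPKM, while the leukemia genes MEIS1 and HOXA9 fell to 48% and 77.6% of control (adjusted p = 8.31e-05 and 0.0167) and FLT3 was at 90.3% (adjusted p = 0.161). The 2 B-cell markers with values together reached at most 1.52 FPKM and 1 fibroblast collagen at most 0.0781 FPKM. Of the T-cell list CD4 alone, a gene also found in monocytes, had a value, at 66.03 to 95.3 FPKM. The epithelial keratins KRT8 and KRT18 summed to 12.1 to 16.0 FPKM, with KRT8 higher in the knockdown (2.29 and 2.35 against 6.26 and 6.19 FPKM, adjusted p = 1.55e-05), and erythroid markers were not analysed here. The part of these markers in the results on ribosomal proteins was not tested.

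The ribosomal protein genes took a smaller share of the measured mRNA in the CEBPG knockdown. Their share of the summed FPKM was 29.98% and 29.92% in control cells, and 26.24% and 26.74% after knockdown. The groups did not overlap, and the means, 29.95% ± 0.0424 and 26.49% ± 0.354 (SD, n = 2 each), differed by -3.46 percentage points. The small subunit went from 12.6% and 12.47% to 10.65% and 10.83%. The large subunit went from 17.38% and 17.44% to 15.59% and 15.91%, so both subunits contributed. In FPKM the members summed to 109249 and 116099 in sh-NC and to 102278 and 100587 in sh-CEBPG#3, 90.0% of control, while the genes outside the list summed to 255105 and 271962 against 287488 and 275579. Both knockdown libraries thus lay below both controls in the sum over members and above them in the sum over other genes, while the totals over all genes overlapped between the groups. An exact permutation test of 2 libraries against 2 cannot go below p = 0.333, so no test is given for a share.

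Gene by gene, 32 of the 84 members tested fell and 2 rose, and the changes were small. The test was limma on log2(FPKM + 1) over 12142 genes that averaged 0.5 FPKM or more, with Benjamini-Hochberg adjusted p under 0.05. The 32 are 38.1% of the members tested, where 23.8% of all genes tested fell, and the 2 are 2.38%, where 18.5% of all genes rose. Both sh-CEBPG#3 libraries lay below both sh-NC libraries for 56 members, a pattern that 40.2% of all genes tested showed, and above them for 4 members, RPL15, RPL36AL, RPL26L1 and RPS18, against 31.5% of all genes. Log2 fold changes ran from -0.76 to 0.40, with a median over all members of -0.16 against -0.04 over all genes tested, and no member differed by more than 1 on the log2 scale. Of the small subunit genes 16 of 33 fell and none rose, against 16 of 51 and 2 in the large subunit, and at an unadjusted p under 0.05 the same fit gave 19 lower and 0 higher in the small subunit and 22 lower and 2 higher in the large subunit, against 28.5% lower and 22.0% higher over all genes. Medians were -0.21 and -0.13, and the difference between the subunits was not tested.

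**Figure D1:**
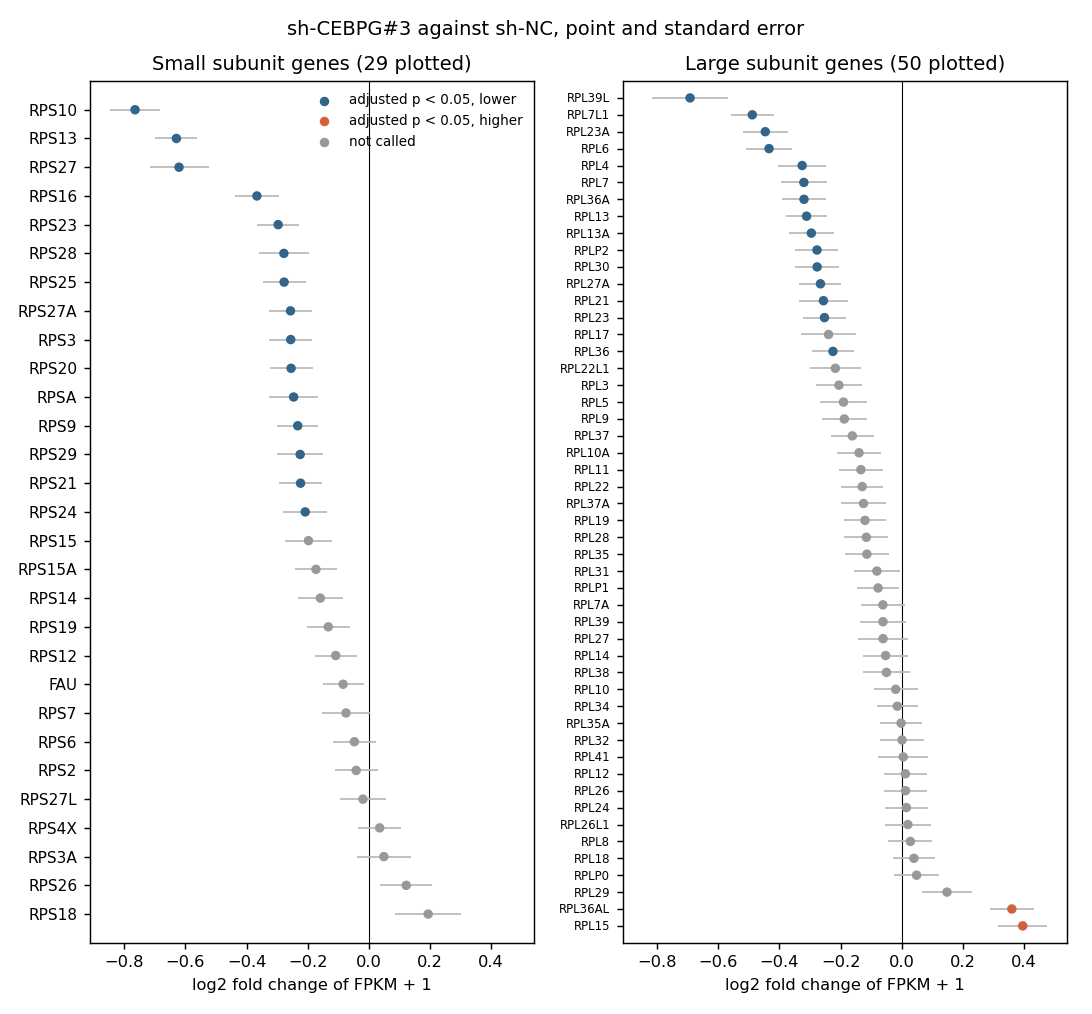
Log2 fold change of FPKM + 1, sh-CEBPG#3 against sh-NC (x axis), for the ribosomal protein genes plotted (a few of those tested are left out), small subunit left and large subunit right, as points with lines of 1 standard error. Blue points passed the test as lower, orange points as higher and grey points did not pass it: the blue points begin with RPS10 at -0.76, and RPL15 and RPL36AL are orange.

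The number of members that fell depended on single libraries and on scaling. With either sh-CEBPG#3 library left out, the share of members that fell was below that of all genes tested. With either sh-NC library left out, it was above. The median log2 fold change over members was -0.156 without sh-CEBPG#3 library 1 and -0.150 without library 2. It was -0.183 without sh-NC library 1 and -0.105 without library 2. Over all genes tested these medians were -0.071, -0.005, -0.072 and -0.008 in the same order. Scaling the libraries to equal FPKM totals outside the ribosomal protein genes gave 62 members that fell, or 73.8% against 35.3% of all genes. The replicate block gave 14, or 16.7% against 22.0%. A core of 6 genes fell in every one of the 14 alternatives, RPS10, RPS13, RPS27, RPL23A, RPL39L and RPL7L1, whereas each of the other 26 lost its call in at least 1 of them. In each fit without a library, the group left with 1 library is assumed to vary like the other group. Separate cultures for the 2 libraries of each group are not stated in the sources used here, so the p-values measure only the spread between these samples.

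In the small subunit, 3 genes stood well below the rest. RPS10, which sits on the head of the subunit and is ubiquitinated when ribosomes collide, had 1027 and 1076 FPKM in sh-NC and 663 and 576 in sh-CEBPG#3. RPS13, which takes part in a bridge between the subunits, had 1497 and 1560 against 970 and 1005. RPS27, a zinc-finger protein of the subunit, had 1084 and 956 against 605 and 724. For all 3 the groups were wide apart, at 58.9%, 64.6% and 65.1% of control. RPS10 fell by 0.76 ± 0.08 (SE) on the log2 scale (limma adjusted p = 6.3e-05). RPS13 fell by 0.63 ± 0.07 (adjusted p = 7.53e-05) and RPS27 by 0.62 ± 0.10 (adjusted p = 0.00067). All 3 genes have the TOP tract at their annotated starts. The 24 bases from 4 before the start are given below 5′ to 3′ from RefSeq on GRCh38.p14, with the pyrimidine run that begins at the annotated start in capitals. RPS10 is read from chr6:34426050-34426073 on the minus strand, RPS13 from chr11:17077648-17077671 on the minus strand and RPS27 from chr1:153990758-153990781 on the plus strand.
RPS10: ccttCCTTTCCagccccggtaccg
RPS13: ctctCCTTTCgttgcctgatcgcc
RPS27: cgctCCTTTCCggcggtgacgacc

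The other 13 small subunit genes that fell lay close together, from RPS16 at -0.37 (77.5% of control) to RPS24 at -0.21 (86.5%). RPS16, whose tail reaches the tRNA in the P site, had 2784 and 2966 FPKM against 2250 and 2208. They include RPS23 and RPS3, which line the decoding site and the mRNA entry channel, RPS28, near the mRNA exit, and RPS25, which several viral internal ribosome entry sites need. RPS27A, made as a fusion with ubiquitin, had 877 and 945 against 777 and 747 (log2 fold change -0.26, adjusted p = 0.0157). RPSA, also known as the laminin receptor precursor, had 1004 and 1124 against 929 and 863 (-0.25, adjusted p = 0.0298). Neither of these passed the test without sh-CEBPG#3 library 1 (adjusted p = 0.16 and 0.155) or library 2 (0.265 and 0.368), and RPSA also missed it without sh-NC library 2 (0.0512). RPS9, RPS20, RPS21 and RPS29 fell as well, to 83.8% to 85.6% of control.

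The remaining 17 small subunit genes did not pass the test, among them the best known disease and signaling genes. RPS19, the gene most often mutated in Diamond-Blackfan anemia, had 1565 and 1655 FPKM against 1491 and 1445 (log2 fold change -0.13, adjusted p = 0.155). RPS14, the 5q- gene, had 2053 and 2251 against 1903 and 1948 (-0.16, adjusted p = 0.111). Both knockdown libraries lay below both controls for these 2 genes, by less than the test could tell from the spread. Both passed as lower with quantile normalization, with equal totals and with equal totals outside the ribosomal protein genes (limma adjusted p = 0.00141 to 0.0107). Without sh-NC library 1 the log2 fold changes were -0.173 and -0.225. RPS6, the substrate of the mTOR-dependent S6 kinases, had 3403 and 3510 against 3398 and 3291 (-0.05, adjusted p = 0.62). RPS2, at the entry channel, had 3411 and 3530 against 3435 and 3309 (-0.04, adjusted p = 0.67). FAU, a fusion of a ubiquitin-like protein with a small subunit protein, had 650 and 638 against 597 and 618 (-0.08, adjusted p = 0.339). These 3 stood at 94.3% to 97.2% of control. With equal totals outside the ribosomal protein genes all 3 passed as lower (limma adjusted p = 0.0113, 0.0118 and 0.0407). RPS6 and RPS2 also did with quantile normalization (0.00949 and 0.0056). RPS3A, RPS4X, RPS7, RPS12, RPS15, RPS15A and RPS26 ranged from -0.20 to 0.12. RPS18 was listed at only 2.11 to 2.65 FPKM, far below the other standard subunits named here.

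In the large subunit, the genes that fell were led by RPL23A and RPL6 among the standard subunits. RPL23A, which receives the signal recognition particle at the exit of the peptide tunnel, had 319 and 353 FPKM in sh-NC and 249 and 243 in sh-CEBPG#3, a fall of 0.45 ± 0.07 on the log2 scale (adjusted p = 0.000933). RPL6 had 1640 and 1819 against 1306 and 1251 (-0.43, adjusted p = 0.00137) and missed the test in 1 of the 14 alternatives. RPL4, which narrows the tunnel, had 1814 and 2037 against 1579 and 1489 (-0.33, adjusted p = 0.00817). In each of these the lowest control library was above the highest knockdown library. RPL13A, which can leave the ribosome to silence inflammatory mRNAs and is one of the most abundant members here, had 3677 and 3958 against 3144 and 3072 (-0.30, adjusted p = 0.00885). It missed the threshold without either sh-CEBPG#3 library (adjusted p = 0.198 and 0.262) and with the replicate block (0.0504). RPL7, RPL13, RPL21, RPL23, RPL27A, RPL30, RPL36 and RPL36A also fell, to between 79.9% and 85.5% of control.

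The functional centers of the large subunit gave mixed values, and its genes RPL7A, RPL9, RPL10A, RPL12, RPL14, RPL17, RPL18, RPL19, RPL24, RPL27, RPL29, RPL31, RPL32, RPL34, RPL35, RPL35A, RPL37, RPL37A, RPL38 and RPL41 ranged from -0.24 to 0.15 and did not pass. RPL5 and RPL11 form the 5S ribonucleoprotein with 5S rRNA and, when free, bind MDM2 and stabilise p53. RPL5 had 1373 and 1545 FPKM against 1299 and 1255 (log2 fold change -0.19, adjusted p = 0.073) and RPL11 had 1833 and 1954 against 1703 and 1748 (-0.13, adjusted p = 0.156). Neither passed the test, although both passed with equal totals (limma adjusted p = 0.0045 and 0.0157). They also passed with equal totals outside the ribosomal protein genes (0.00171 and 0.0055). With quantile normalization RPL11 passed (0.00359) and RPL5 did not (0.0882). Without sh-NC library 1 the log2 fold changes were -0.28 and -0.18. Of the stalk that recruits elongation factors, RPLP2 fell from 1650 and 1583 to 1298 and 1369 (-0.28, adjusted p = 0.0101). Its partner RPLP1 had 3283 and 3244 against 3057 and 3130 (-0.08, adjusted p = 0.398). RPLP0, which anchors the stalk, had 3241 and 3410 against 3525 and 3354 (0.05, adjusted p = 0.623), a sign that turned under 2 alternatives. The 3 stalk genes therefore did not share a call. RPL10, which closes the P site late in assembly, had 593 and 639 against 622 and 593 (-0.02, adjusted p = 0.848), a sign that turned when sh-NC library 2 or sh-CEBPG#3 library 2 was left out. RPL8, at the center of the subunit, had 3120 and 3330 against 3284 and 3289 (0.03, adjusted p = 0.781), with a sign that also depended on scaling. RPL3, near the peptidyl transferase center, had 2736 and 3012 against 2526 and 2452 (-0.21) and missed the threshold narrowly (adjusted p = 0.0504). It passed with quantile normalization (limma adjusted p = 0.00103) and with equal totals (0.00189), and its log2 fold change was -0.27 without sh-NC library 1. RPLP1 and RPL10 passed as lower with quantile normalization and with equal totals outside the ribosomal protein genes, and RPL8 with quantile normalization.

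Of the 6 members with the highest level, 1 fell. Members made up 37 of the 50 genes with the highest mean FPKM and 62 of the highest 100, and 46 members had a mean over 1000 FPKM, against a median of 7.57 FPKM over all genes tested in sh-NC. These 6 were RPL13A, RPS2, RPS6, RPLP0, RPL8 and RPLP1, of which RPL13A fell. The 7 members with a mean under 50 FPKM included the paralogs RPL3L, RPL39L, RPL26L1, RPL22L1 and RPS27L.

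RPL15 and RPL36AL were the 2 members that rose. RPL15, a large subunit gene that is a rarer cause of Diamond-Blackfan anemia, had 352 and 388 FPKM in sh-NC and 512 and 463 in sh-CEBPG#3, a rise of 0.40 ± 0.08 on the log2 scale (adjusted p = 0.00303). Its level was spread over 6 transcripts that shifted between libraries of 1 group, such as NM_001253382 with 144 and 41.1 in control cells, and none of them passed by itself. RPL15 missed the test without sh-CEBPG#3 library 1 (0.32, adjusted p = 0.0914) and when only its most abundant transcript was used (0.22, adjusted p = 0.589). RPL36AL had 136 and 146 against 176 and 186 (0.36 ± 0.07, adjusted p = 0.00276), with the groups apart, and missed the test without sh-CEBPG#3 library 2 (adjusted p = 0.065).

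RPL36AL is an autosomal copy of the X-linked RPL36A and encodes nearly the same protein, and the pair moved in opposite directions. RPL36A had 115 and 126 FPKM in sh-NC and 96.4 and 96.0 in sh-CEBPG#3 (log2 fold change -0.32, adjusted p = 0.00578), and missed the threshold without sh-CEBPG#3 library 1 (adjusted p = 0.0611) or library 2 (0.0666). RPL36AL stood at 119% and 116% of RPL36A in the control libraries and at 183% and 194% in the knockdown libraries. The pair also differs at the start site, and so does RPL15 from most members. In the same notation as above, RPL36A is read from chrX:101391007-101391030 (plus strand), RPL36AL from chr14:49620607-49620630 (minus strand) and RPL15 from chr3:23916541-23916564 (plus strand).
RPL36A: gtttCTTTCTTTCCgcgccgatag
RPL36AL: ctttCCTgttaggcgagagctgcg
RPL15: ctgcTggaggagcttcacgcagtc
RPL36A has a run of 10 pyrimidines, whereas RPL36AL has 3 and the annotated start of RPL15 has 1, a T.

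**Figure D2:**
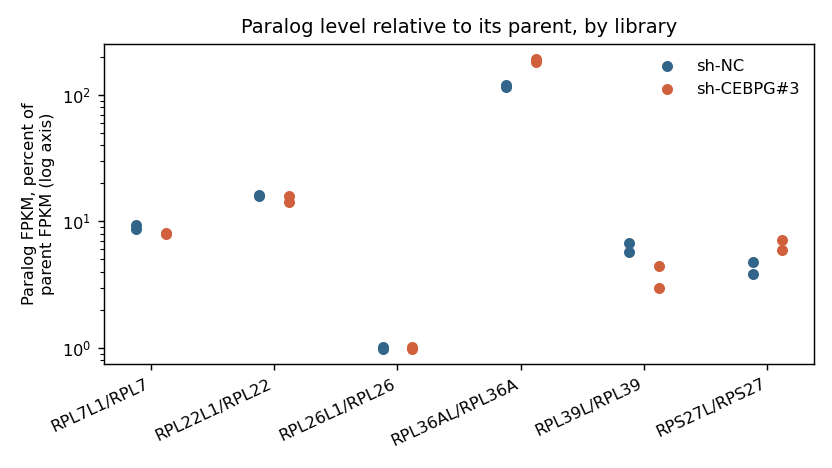
FPKM of each paralog as a percent of its parent's FPKM in the same library (y axis, log scale), 2 sh-NC and 2 sh-CEBPG#3 libraries per pair, with RPL3L left out because it was near 0. RPL36AL stood at 119% and 116% of RPL36A in sh-NC and at 183% and 194% in sh-CEBPG#3, while RPL26L1 stayed near 1% of RPL26 in all 4 libraries.

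The other paralogs were each well below their parent gene, and their ratios went in both directions. RPL39L, a copy of RPL39 best known from testis, had 7.34 and 6.74 FPKM against 4.63 and 3.39 (-0.69 ± 0.12, adjusted p = 0.00152), while RPL39 had 110 and 118 against 104 and 114 (-0.06, adjusted p = 0.55, with a sign that turned without sh-CEBPG#3 library 1). RPL39L was 6.71% and 5.73% of RPL39 in sh-NC and 4.45% and 2.99% in sh-CEBPG#3. RPL7L1 had 80.6 and 84.2 against 59.5 and 57.3 (-0.49 ± 0.07, adjusted p = 0.000428), and its parent RPL7 had 856 and 959 against 737 and 715 (-0.32, adjusted p = 0.00727), so both genes of this pair fell. RPL7 did not pass without sh-CEBPG#3 library 1 (adjusted p = 0.101) or library 2 (0.155). RPS27L, a p53 target, had 41.6 and 45.5 against 43.2 and 42.7 (-0.02, adjusted p = 0.86, with a sign that turned without sh-NC library 2) beside the fall of RPS27, and its percent of RPS27 was 3.84 and 4.76 in sh-NC and 7.14 and 5.90 in sh-CEBPG#3. RPL22L1 had 26.5 and 27.3 against 24.5 and 21.5 (-0.22, adjusted p = 0.0624) and RPL22 had 163 and 172 against 155 and 151 (-0.13, adjusted p = 0.156). Both passed as lower with quantile normalization (limma adjusted p = 0.0324 for RPL22L1 and 0.0156 for RPL22) and with equal totals (0.0184 and 0.00827). The log2 fold change of RPL22L1 was -0.24 without sh-NC library 1. RPL26L1 had 17.99 and 18.1 against 18.27 and 18.35, next to RPL26 with 1774 and 1858 against 1850 and 1813 (0.02 and 0.01, adjusted p = 0.856 and 0.901), and both signs turned when libraries were scaled to equal totals. RPL3L, a muscle form of RPL3, was listed at 0.337, 0.228, 0.0751 and 0 FPKM and was too low to test. The ratios were not tested, and how the authors' counting split reads between near-identical copies is not given in the sources used here.

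The annotated starts of RPS27L, RPL7L1 and RPL26L1, which begins with a G, also lack the tract. RPS27L is read from chr15:63157458-63157481 (minus strand) and RPL7L1 from chr6:42879612-42879635 (plus strand), and neither has a pyrimidine at the annotated start.
RPS27L: gagcgcagatcgcttgcagcttgc
RPL7L1: cgccgtagctaggagcggacgcca
RPL22L1, by contrast, starts with 6 pyrimidines and RPL22 with 7. RPL7L1 fell with no tract at its annotated start, and RPS27L and RPL26L1 did not pass the test with none.

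Start sites could be matched in RefSeq for 68 of the 85 members. A C at the start with at least 5 pyrimidines in a row was found in 44 of them, or 64.7%, against 5.69% of the 9185 tested genes with a match, and in 5 of 69 mitochondrial ribosomal protein genes. The median run was 7 bases in the members and 0 over all genes. The tract was present in 17 of 24 matched members that fell (70.8%) and in 27 of 42 that did not pass the test (64.3%), and the median log2 fold change was -0.12 for the 44 with it and -0.14 for the 24 without. RPLP0 and RPS6, which did not pass the test, and RPL13A, which fell, show how similar such starts are. They are read from chr12:120201092-120201115 (minus strand), chr9:19380217-19380240 (minus strand) and chr19:49487604-49487627 (plus strand).
RPLP0: aggcCCTTCTCTCgccaggcgtcc
RPS6: ggccCTCTTTTCCgtggcgcctcg
RPL13A: cctcCTTTTCCaagcggctgccga
An annotated start need not be the one used in these cells. RPL11, for example, had an A at its annotated start and a run of 5 pyrimidines that begins 4 bases further on.

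**Figure D3:**
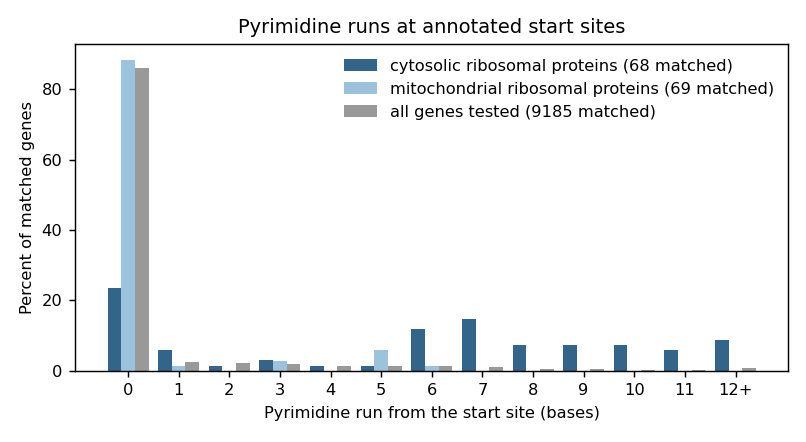
Length of the unbroken pyrimidine run from the RefSeq annotated start (x axis, bases) against the percent of matched genes (y axis), for 68 cytosolic ribosomal protein genes, 69 mitochondrial ribosomal protein genes and 9185 tested genes. Of the cytosolic genes 23.5% stand at 0 and most of the rest at 6 or more, with a median of 7, whereas most of the other genes stand at 0.

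Promoter letters were also counted on both strands of the 300 bases around each annotated start, with overlaps between motifs allowed. TTGCNNAA, the outer letters of a C/EBP site, was present in 8 of 68 members (11.8%) against 7.04% of all tested genes with a match. TGATGNAA, which covers joint C/EBP and ATF4 sites, was present in 2 members (2.94%) against 1.60%. CTTCCG, the core bound by ETS factors, was present in 42 members (61.8%) against 35.6%, and TATAAA in 6 (8.82%) against 5.53%. Among mitochondrial ribosomal protein genes, 6 of 69 held TTGCNNAA (8.7%) and 37 of 69 held CTTCCG (53.6%). Of the members that fell, 3 of 24 held TTGCNNAA (12.5%) and 17 of 24 held CTTCCG (70.8%). Of the members that did not pass the test, 5 of 42 held TTGCNNAA (11.9%) and 24 of 42 held CTTCCG (57.1%). These are counts of letters and do not show binding.

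A sum over transcripts can hide exchange within a gene, and RPS24 was the clearest case. RPS24, a small subunit gene whose transcripts differ by short exons near the end of the coding sequence, had 2066 and 2238 FPKM in all in sh-NC against 1870 and 1852 in sh-CEBPG#3 (-0.21, adjusted p = 0.0409). Its main transcript NM_001026 fell from 1880 and 2011 to 1366 and 1318 (-0.53, adjusted p = 0.0307). NM_033022 rose from 183 and 224 to 501 and 531 (1.34 ± 0.12, adjusted p = 0.0165). The share of RPS24 in NM_033022 thus went from 8.88% and 10% to 26.8% and 28.7%, with the groups far apart. For the gene as a whole the call was less firm and was kept in 1 of the 4 fits without a library.

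**Figure D4:**
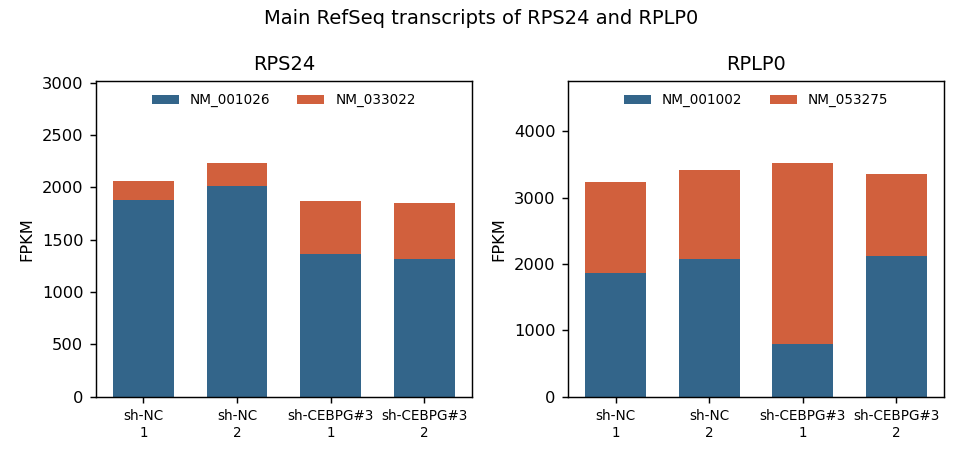
FPKM (y axis) of the 2 main RefSeq transcripts of RPS24 (left) and RPLP0 (right), stacked, in the 2 sh-NC and 2 sh-CEBPG#3 libraries. NM_033022 of RPS24 is taller in both sh-CEBPG#3 libraries (501 and 531 against 183 and 224), whereas for RPLP0 the 2 sh-CEBPG#3 libraries differ from each other.

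Tested one by one, a fit chosen after seeing the data, 9 of 147 member transcripts passed, 7 lower and 2 higher, while 8.24% of all transcripts tested passed in either direction. Besides the RPS24 pair they included the main transcript of RPS10, NM_001014 (967 and 1009 against 653 and 550, -0.72, adjusted p = 0.0359), and that of RPL13, NM_000977 (440 and 484 against 326 and 315, -0.53, adjusted p = 0.0331). A minor transcript of RPL28, NM_001136135, rose from 4.38 and 3.75 to 8.49 and 9.49 (0.98, adjusted p = 0.0305). RPL28 as a gene had 275 and 302 against 269 and 263 and did not pass (adjusted p = 0.225). In RPLP0 the exchange lay between replicates: NM_001002 had 1872 and 2080 in sh-NC but 798 and 2115 in sh-CEBPG#3, and NM_053275 had 1369 and 1330 but 2726 and 1239, with adjusted p = 0.486 and 0.524. Transcripts that share most of their exons are hard to tell apart in short reads, and the program that estimated them is not given in the sources used here.

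Among members grouped by disease or position, 6 of 20 Diamond-Blackfan anemia genes fell and 1 rose (median -0.13), 2 of 8 MDM2-binding proteins fell (median -0.15), 3 of 7 genes along the mRNA channel fell (median -0.20) and 2 of 8 at the peptide tunnel fell (median -0.12). Their shares, 25% to 42.9%, compare with 23.8% of all genes. The list for the mRNA channel also named RPS30, which had no value under that symbol, and its gene FAU did not pass the test.

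The rest of the pathway was read in the same fit. Of 28 TOP mRNAs that do not encode these proteins, 10 fell (35.7%, against 23.8% of all genes) and 0 rose by limma, with 2 higher at an unadjusted p under 0.05 and a median of -0.05. Without sh-CEBPG#3 library 1 it was 6 (21.4%, against 20.7%) and without library 2 it was 4 (14.3%, against 16.1%), so the list was near the background in both fits, and 3 rose without sh-NC library 2. EIF3H, a subunit of initiation factor eIF3, fell by 0.51, BTF3, part of the nascent chain complex, by 0.49 and the histone chaperone gene NAP1L1 by 0.42 (adjusted p = 0.000349, 0.000438 and 0.000963). The smallest falls were those of TPT1, EIF4B and IPO7, at -0.21, -0.23 and -0.28 (adjusted p = 0.0349, 0.0288 and 0.0176), and all 3 missed the test without sh-CEBPG#3 library 2 (adjusted p = 0.326, 0.239 and 0.166). TPT1 and EIF4B missed it without sh-CEBPG#3 library 1 (0.235 and 0.181) and without sh-NC library 2 as well (0.0704 and 0.075), and TPT1 turned to 0.61 when its most abundant transcript alone was used. The abundant elongation factor genes EEF1A1, at 4200 and 4596 FPKM against 4648 and 4398 (0.04, adjusted p = 0.7), and EEF2, at 1790 and 1959 against 2012 and 2023 (0.11, adjusted p = 0.266), did not pass. The tract was found in 16 of the 20 genes of this list with a match in RefSeq.

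Many genes that escort ribosomal proteins to the nucleus and into the particle fell as well. Of 16 chaperones and importers, 11 fell (68.8%, against 23.8% of all genes) and 1, PDCD2L, rose (median -0.31), though PDCD2L missed the test without sh-NC library 1 or sh-CEBPG#3 library 2, and 3 of them, NAP1L1, IPO5 and IPO7, are also on the TOP list. LTV1, needed for late small subunit assembly, had 37.9 and 39.5 FPKM against 26.2 and 22.6 (-0.65, adjusted p = 0.000271). RRS1, which brings in the 5S particle, had 34.8 and 37.1 against 23.1 and 23.5 (-0.60, adjusted p = 0.000174). The RPL23 chaperone BCCIP fell by 0.48 and the RPL3 chaperone GRWD1 by 0.41 (adjusted p = 0.000531 and 0.00205). For these 4 genes, named after their values were seen, both knockdown libraries lay below both controls, as they did for 40.2% of all genes tested.

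Among 15 regulators of mTOR signaling and TOP mRNAs, 5 fell (33.3%, against 23.8% of all genes) and 0 rose by limma (against 18.5%), with 1 higher at an unadjusted p under 0.05. EIF4EBP1, a repressor of translation that mTOR switches off, had 205 and 226 FPKM against 49.97 and 48.9 (-2.10 ± 0.07, adjusted p = 3.84e-08), further on the log2 scale than any ribosomal protein gene. Its relatives EIF4EBP2 and EIF4EBP3 fell by 0.97 each (adjusted p = 2.48e-05 and 0.00011), the mTORC1 subunit gene RPTOR by 0.52 (0.00189) and MYC, a transcription factor that drives ribosome production, by 0.75 (216 and 249 FPKM against 140 and 136, adjusted p = 6.48e-05). LARP1 had 48.4 and 51.1 against 46.8 and 45.8 (-0.10, adjusted p = 0.287) and MTOR had 7.18 and 7.65 against 7.64 and 7.48 (0.03, adjusted p = 0.835). Among 13 host genes of small nucleolar RNAs, many of which have the tract as well, 3 fell (23.1%) and 2 rose (15.4%), near the 23.8% and 18.5% of all genes, with 0 rising without either sh-CEBPG#3 library, and GAS5, at 1322 and 1401 against 1426 and 1374 FPKM, did not pass (adjusted p = 0.68).

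The counts for the mitochondrial ribosome lay nearer to those of all genes. Of its 78 genes 20 fell and 12 rose (25.6% and 15.4%), the median was -0.03, and they took 0.703% and 0.699% of the summed FPKM in sh-NC against 0.657% and 0.667% in sh-CEBPG#3. With either sh-CEBPG#3 library left out, fewer of them fell and fewer rose. In both of these fits a smaller share of the cytosolic genes fell than of the mitochondrial ones. The difference between the cytosolic and mitochondrial lists was not tested.

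Ribosomal protein genes have many processed pseudogenes, to and from which reads can be misplaced. By symbol, RefSeq annotates 137 for RPL21 and 95 for RPL23A, and 7 members had none. Only pseudogene symbols that begin with RPL or RPS were counted, so none could be found for FAU, which is among the 7. The median log2 fold change was -0.05 for those 7, with RPL3L left out because it was not tested. It was -0.20 for 20 members with 1 to 9, -0.14 for 31 with 10 to 29 and -0.17 for 27 with 30 or more. Of 23 pseudogenes with a value, 14 were tested, 2 fell (14.3%, against 23.8% of all genes) and 1 rose (7.14%, against 18.5%). The highest, RPL13AP5, had 149 and 43.5 FPKM in sh-NC against 21.7 and 21.8, small beside the 3072 FPKM or more of RPL13A. Adding pseudogene FPKM to the parent genes gave 33 members that fell, against 32.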

How the data were processed

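Total RNA from MV4-11 cells was made into Illumina TruSeq libraries. Per the submitters' processing notes, reads were mapped with HISAT2 2.0.5 to hg38. The authors deposited FPKM for 28780 RefSeq transcripts, 28581 of them with values, and the program and annotation release behind the FPKM are not given in the sources used here. Members and gene lists were chosen with earlier results of these data known. FPKM of a symbol's transcripts were summed and 12142 genes that averaged 0.5 FPKM or more were tested with limma 3.58.1 (R 4.3.3, eBayes with trend) on log2(FPKM + 1), 2 libraries against 2, two-sided, with Benjamini-Hochberg adjustment over all genes tested. Fold changes are on that scale and understate those of low genes. The paper's DESeq2 test needs counts and was not used. Tables and figures used Python 3.11.15, pandas 2.3.3, numpy 2.4.6 and matplotlib 3.10.9. The script was tested on simulated data.

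Values are given for the 6 highest members, the 6 called members with the lowest and up to 6 with the highest fold changes, role genes, paralogs and their parents, CEBPG and EIF4EBP1, and the 3 lowest and 3 highest called genes among other TOP mRNAs. A few genes are not reported here by name, though they enter the counts. Other genes were named after their values were seen. Alternatives changed the pseudocount, filter, scaling, summing of transcripts, replicate block and libraries. Same-numbered libraries did not deviate together (r = 0.0606 over all genes tested and -0.358 over the 85 members, 2 pairs), so the numbers were not taken as pairs. Start sites are those of RefSeq on GRCh38.p14.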

Additional observations from a re-analysis of the deposited data

How the results depend on the processing

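The count of ribosomal protein genes that fell, 32, was 13 with no filter (15.3% of members against 13.5% of all genes), 59 with quantile normalization (70.2% against 25.1%), 51 with equal totals (60.7% against 28.9%) and 62 with equal totals without the members (73.8% against 35.3%). It was 14 with the replicate block, a fit in which numbers shared by 2 pairs stand for no known link, and 6 to 48 with 1 library left out. With a library of either group out, the lone library left is assumed to vary like the other group. The count that rose, 2, was 1 with the most abundant transcript alone and 1 to 4 with a library left out. The median log2 fold change went from -0.159 to -0.254 with equal totals without the members, where that of all genes went from -0.038 to -0.118, and to -0.105 without sh-NC library 2, and the difference in share from -3.46 to -4.01 percentage points with the most abundant transcript alone. The cause of these shifts was not tested. Of 546 values for 39 named genes, 455 kept their direction and side of the threshold, 36 lost the call, 37 gained one and 18 changed sign.

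The changes of sign, apart from that of TPT1, were in genes that had not passed the test. RPL26 went to -0.0596 with quantile normalization, -0.0136 with equal totals, -0.0831 with equal totals without the members, and -0.0210 and -0.0020 without sh-NC library 1 or sh-CEBPG#3 library 1 (up to 0.0462 without another). RPL26L1 went to -0.0047 and -0.0707 with the 2 scalings to equal totals. RPL8 went to -0.0771 with quantile normalization, -0.0675 with equal totals without the members, -0.2169 with the most abundant transcript alone and -0.0187 without sh-NC library 1 (up to 0.0751 without another). RPLP0 went to -0.0471 and -0.6021 with equal totals without the members and with the most abundant transcript alone. With 1 library left out, RPL10 went to 0.0339 and 0.0152 (down to -0.0735), RPL39 to 0.0027 (down to -0.1254) and RPS27L to 0.0424 (down to -0.0812). TPT1 went to 0.6080 with the most abundant transcript alone. Over the alternatives 4 to 17 other TOP mRNAs fell and 0 to 3 rose, 11 to 31 mitochondrial ribosomal protein genes fell and 5 to 16 rose, 7 to 12 chaperones fell and 0 to 2 rose, 5 to 7 TOP regulators fell and 0 to 2 rose, and 2 to 8 snoRNA hosts fell and 0 to 3 rose. The share of all genes that fell itself ranged from 12.8% with the most abundant transcript alone to 35.3% with equal totals without the members. That last scaling also gave the highest count that fell in each of these lists. Depth is unknown, so no counting interval can be given.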
